A study of Mus musculus with 8 samples.

Results

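The proteasome is the large protease that degrades proteins tagged with ubiquitin, and its constitutive subunits were followed here through hyperoxia in the mouse retina. The genes were every single gene symbol on the array that starts with Psma, Psmb, Psmc or Psmd followed by a digit, without the inducible subunits Psmb8, Psmb9 and Psmb10. This rule found 37 symbols. One of them, Psmc3ip, encodes a cofactor of meiotic recombination that only shares the name, so it was set aside and 36 genes, read by 74 probe sets, were described out of 18193 genes measured by a probe set of their own. Of the 36 genes, 17 had 1 probe set, and Psmd11 had the most, with 8. A gene's value is the mean of its probe sets. No member had to pass a filter on low values.

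The retinas came from adult C57BL/6J mice aged 80 to 120 days, all raised in dim cyclic light. Control mice (day 0) breathed normal air, and the others were kept for 3, 7 or 14 days in air enriched to 75% oxygen. There were 2 arrays (Affymetrix mouse genome arrays) at each of the 4 times, 8 in all, named replicate 1 and replicate 2 as labelled. The methods describe pooling of retinas from male and female mice for each time, and it is not stated whether both arrays of a given time held separate pools, so the spread between them may be technical.

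The values are on the log2 scale, and every probe set has been centred to a median of 0 across the 8 arrays. A value of 0 is therefore the middle of that gene's own 8 arrays, and a gene's value on one array can be set against its value on another array but never against the level of another gene. Whether the defining markers of retina, or any gene, are detected cannot be read from centred values. In whole retina, fewer cells of a type and less RNA per cell cannot be told apart.

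The core of the proteasome is a barrel of stacked rings. The outer alpha rings, encoded by the Psma genes, gate the entry, and the inner beta rings, encoded by the Psmb genes, carry the catalytic sites. A regulatory particle caps the barrel: its ring of ATPases, encoded by the Psmc genes, unfolds the substrate, and its other subunits, encoded by Psmd genes, bind ubiquitin chains and remove them. A few Psmd genes encode chaperones that help to assemble the ATPase ring and then leave. Inflammatory signals such as interferon make cells replace the catalytic beta subunits by Psmb8, Psmb9 and Psmb10. In photoreceptors, which make and shed large amounts of membrane protein, the proteasome degrades misfolded and oxidised proteins.

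When the proteasome is inhibited, cells raise its subunit genes together through the factor Nfe2l1, which binds antioxidant response elements with a small Maf partner. The core letters of that element, TGACNNNGC, were looked for on both strands of the RefSeq promoters (GRCm38.p6, 250 bases before to 50 after each start site), because they are the sequence these promoters are best known for. RefSeq promoters were at hand for 29 of the 36 genes, 31 promoters in all, and not for Psma8, Psmb1, Psmb2, Psmb7, Psmc3, Psmd3 and Psmd7. The letters stood in 5 of the 31 promoters (16.1%), against 12.4% of the 32851 promoters of all genes. The 5 matches follow, each from up to 30 bases before the match towards the start site, with the match in capitals, read 5′ to 3′ on the strand of the gene:
Psmb5, chr14:54618004-54618072, minus strand: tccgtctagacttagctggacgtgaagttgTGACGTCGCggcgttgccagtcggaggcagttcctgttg
Psmb6, chr11:70525318-70525356, plus strand: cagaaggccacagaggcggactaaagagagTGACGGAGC
Psmd9, chr5:123228129-123228189, plus strand: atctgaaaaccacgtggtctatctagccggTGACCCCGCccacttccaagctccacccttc
Psmc6, chr14:45329574-45329635, plus strand: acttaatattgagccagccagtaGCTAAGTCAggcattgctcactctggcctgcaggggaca
Psmd12, chr11:107479278-107479319, plus strand: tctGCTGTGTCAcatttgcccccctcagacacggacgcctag

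The matches of Psmb5, Psmb6 and Psmd9 read along the gene and began 47, 9 and 31 bases before the start site. Those of Psmc6 and Psmd12 lay on the opposite strand, 227 and 247 bases before it. A match describes letters only, and binding was not measured in these data.

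Array quality differed within the times. Replicate 2 of day 3 and replicate 2 of day 14, as labelled, stood apart from the other 6: their control probe sets for Gapdh read 1.19 and 1.43 higher at the 3′ end than at the 5′ end on the centred scale, against -0.32 to 0.12 on the other arrays, a sign of RNA quality. The median of the 14 microglia markers reached 1.21 and 1.11 there and at most 0.20 elsewhere, and the 12 gliosis markers had medians of 1.34 and 1.22 against at most 0.17. The 14 lens genes differed widely, also within a time: their medians were -1.81 and 1.81 in controls, -2.09 and -0.79 at day 3, 2.05 and 3.49 at day 7, then 0.80 and -0.85 at day 14. The 14 rod markers had medians of -0.36 and -0.25 at day 3 and -0.33 on day 14 replicate 2, against 0.01 to 0.10 elsewhere. The part of these differences in the proteasome values was not tested.

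Whether the arrays of day 3 and day 14 all carry the right label is in doubt. In the quality measures that accompany the study, the Gapdh ratio sets both arrays of the last time apart and neither array of any earlier time, whereas in the deposited values it sets apart a single array of the last time and a single array labelled day 3. Each array was kept at its labelled time, the labels could not be checked from these files, and every day 3 and day 14 value below holds only if they are right. Main counts are also given with single arrays of day 3 or day 14 left out. Such fits cannot show whether a label is right, since every array kept in them stays at its labelled time.

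Over the 36 proteasome genes, values were highest at day 3 and lowest at day 7, and single arrays carried much of that pattern. The median of the 36 genes was -0.02 and -0.06 on the 2 control arrays, 0.22 and 0.08 at day 3, -0.11 and -0.18 at day 7, then 0.07 and 0.06 at day 14. The arrays of day 3 and of day 14 all lay above those of control, and the arrays of day 7 all lay below. Medians over all genes stayed between -0.03 and 0.06. The array labelled day 3 replicate 1 was the highest of the 8 for 18 of the 36 genes (50% of them, against 20.3% of all genes), and day 7 replicate 2 was the lowest for 21 (58.3%, against 20.7% of all genes). These 2 arrays also had the widest spread over probe sets, with an SD of 0.41 each, and they were the lowest and the highest in lens genes, in the opposite order.

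**Figure D1:**
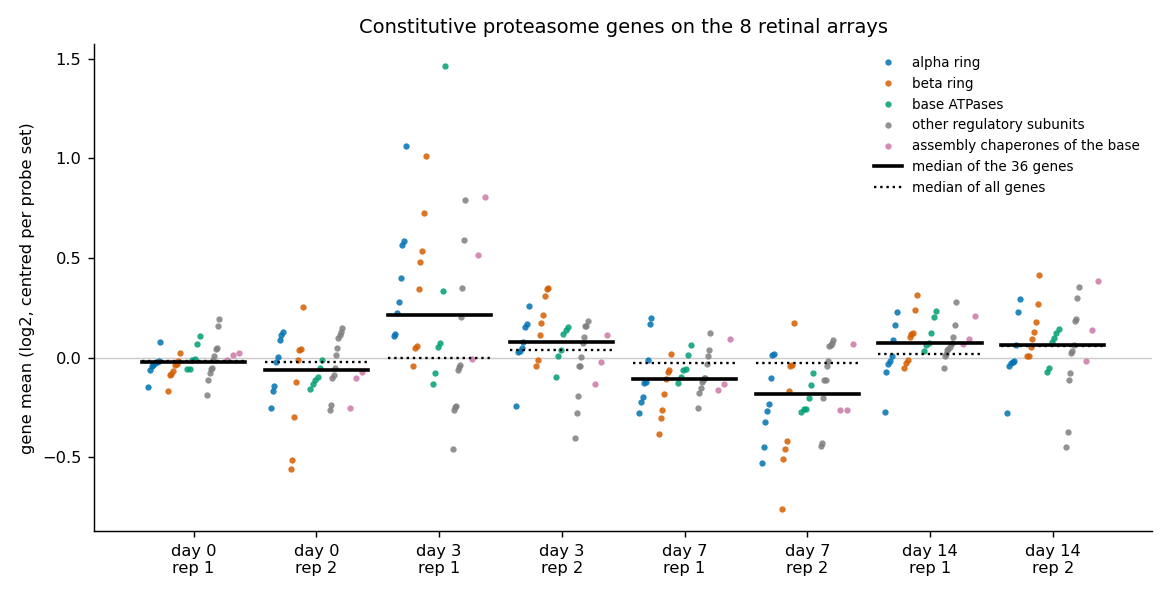
Value of each of the 36 constitutive proteasome genes on the 8 arrays (log2, each probe set centred to a median of 0 across arrays), 1 point per gene, coloured by its place in the complex. The solid line, the median of the 36 genes, is highest on day 3 replicate 1 (0.22) and lowest on day 7 replicate 2 (-0.18), while the dotted line, the median of all 18193 genes, stays near 0.

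After 3 days in oxygen, all 16 genes of the core rings had a higher mean than in control, and 5 of the 11 regulatory subunits outside the ATPase ring did. Of the 36 genes, 29 were higher than at day 0 and 7 were lower, against 59.2% of all genes higher, and the median difference was 0.18 against 0.06 over all genes. Both day 3 arrays lay above both control arrays for 16 genes (44.4% of them, against 28.2% of all genes) and below both for 1, Psmd1 (16.1% of all genes). The alpha ring had a median of 0.30 and the beta ring of 0.32. The 6 ATPases had a median of 0.15, the 3 Psmd chaperones 0.23, and the 11 other regulatory subunits -0.04.

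No single difference at day 3 passed the test. With limma and Benjamini-Hochberg adjustment over all 18193 genes, 0 of the 36 genes were past an adjusted p of 0.05, as were 0 of all genes (0%), and the lowest adjusted p among the 36 was 0.427. At an unadjusted p under 0.05, 5 genes were higher (Psma2, Psmb1, Psmb3, Psmb4 and Psmd6), or 13.9%, against 6.38% of all genes, and 0 were lower, against 4.61% of all genes. A plain one-way analysis of variance over all genes gave 1 gene at an unadjusted p under 0.05 (Psmc2, against 7.17% of all genes) and 0 after adjustment. The median difference was 0.11 without day 3 replicate 1, with 27 of 36 genes higher, against a median of 0.07 and 61.2% higher over all genes. It was 0.19 without day 3 replicate 2, again with 27 higher, against a median of 0.03 and 54.2% higher over all genes. Of the 16 ring genes, 13 were higher than control without day 3 replicate 1 and 15 without replicate 2. The lens genes had a median difference of -1.34 at day 3, and the rod markers of -0.31.

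Psmb3 and Psmb1, structural subunits of the beta ring, had the smallest p among the 36 genes at day 3. Psmb3 stood at -0.03 and -0.51 on the control arrays, 1.02 and 0.34 at day 3, -0.38 and -0.76 at day 7, then 0.12 and 0.42 at day 14. Both arrays of day 3 and both of day 14 lay above both control arrays, while those of day 7 overlapped with control. Its difference from control was 0.95 ± 0.28 (SE, limma, n = 2 per time) at day 3, with an adjusted p of 0.427, and 0.54 ± 0.28 at day 14, with an adjusted p of 0.627. Psmb1 stood at -0.08 and -0.56 in controls, 0.35 and 0.35 at day 3, -0.30 and -0.46 at day 7, then 0.12 and 0.27 at day 14. The 2 arrays of day 3 were nearly equal, and the control arrays were further apart than those of any other time. The difference was 0.67 ± 0.18 at day 3 (limma, unadjusted p = 0.00664, adjusted p = 0.427) and 0.51 ± 0.18 at day 14 (adjusted p = 0.615).

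Psmb4, the last subunit to join the beta ring, stood at -0.01 and -0.30 in controls, 0.48 and 0.11 at day 3, -0.26 and -0.51 at day 7, then 0.10 and 0.18 at day 14. For this gene too the arrays of day 3 and day 14 lay above both controls, and 1 of the 2 day 7 arrays lay within their range. The differences were 0.45 ± 0.18, -0.23 ± 0.18 and 0.30 ± 0.18 at days 3, 7 and 14. On day 0 replicate 2 these 3 subunits stood at -0.30 to -0.56, below their values on the other control array.

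Psmb6, Psmb7 and Psmb5 encode the catalytic subunits that cut after acidic, basic and hydrophobic residues. Psmb5 stood at -0.17 and 0.04 in controls, 0.06 and 0.17 at day 3, -0.18 and -0.04 at day 7, then -0.05 and 0.09 at day 14. The range of its 8 arrays, from -0.18 to 0.17, was narrow, and only at day 3 were both arrays above both controls, by a mean of 0.18 ± 0.14. Psmb6 stood at 0.02 and -0.12 in controls, 0.05 and 0.21 at day 3, -0.06 and -0.42 at day 7, then -0.02 and 0.13 at day 14. Its day 3 arrays lay above both controls, by a mean of 0.18 ± 0.16, and its lowest array was day 7 replicate 2. Psmb7 stood at -0.04 and 0.04 in controls, 0.72 and -0.04 at day 3, -0.11 and -0.17 at day 7, then 0.24 and 0.05 at day 14. Its mean at day 3 rested on replicate 1 alone, since replicate 2 lay at the level of the controls, and the difference was 0.34 ± 0.24. The adjusted p at day 3 was 0.618, 0.663 and 0.586 for Psmb5, Psmb6 and Psmb7.

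Among the other core subunits, Psma5 of the alpha ring stood at -0.03 and -0.17 in controls, 0.28 and 0.17 at day 3, -0.20 and -0.45 at day 7, then 0.01 and 0.23 at day 14. Its arrays did not overlap with the controls at any of the 3 times, above at days 3 and 14 and below at day 7, with differences of 0.33 ± 0.15, -0.22 ± 0.15 and 0.22 ± 0.15. This is the mean of 3 probe sets, and 1 of them was lower at all 3 times (-0.04, -0.13 and -0.06). Psma7, an alpha ring subunit, stood at -0.02 and -0.02 in controls, 0.59 and 0.03 at day 3, -0.28 and -0.23 at day 7, then 0.16 and -0.04 at day 14. Both arrays of day 7 lay below both controls, which were nearly equal, and at day 3 replicate 1 carried most of the difference of 0.33 ± 0.19. The remaining alpha ring genes with a constitutive role had differences between 0.09 (Psma1) and 0.48 (Psma2) at day 3. Psma4 among them stood at 1.06 on day 3 replicate 1 and at -0.24 on replicate 2.

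The rule also finds subunits with a tissue of their own. Psma8 replaces an alpha subunit in testis, and it stood at -0.15 and 0.09 in controls, 0.11 and 0.15 at day 3, -0.01 and 0.01 at day 7, then -0.27 and -0.02 at day 14. Only its day 3 arrays lay outside the range of the controls on both arrays, with a difference of 0.16 ± 0.14. Psmb11 replaces the catalytic Psmb5 in the thymic cortex, and it stood at -0.09 and 0.25 in controls, -0.04 and 0.31 at day 3, 0.02 and -0.03 at day 7, then -0.01 and 0.01 at day 14. Its control arrays were further apart than any difference from control, the largest of which was -0.09 ± 0.17 at day 7. Whether either transcript is present in retina cannot be told from centred values.

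**Figure D2:**
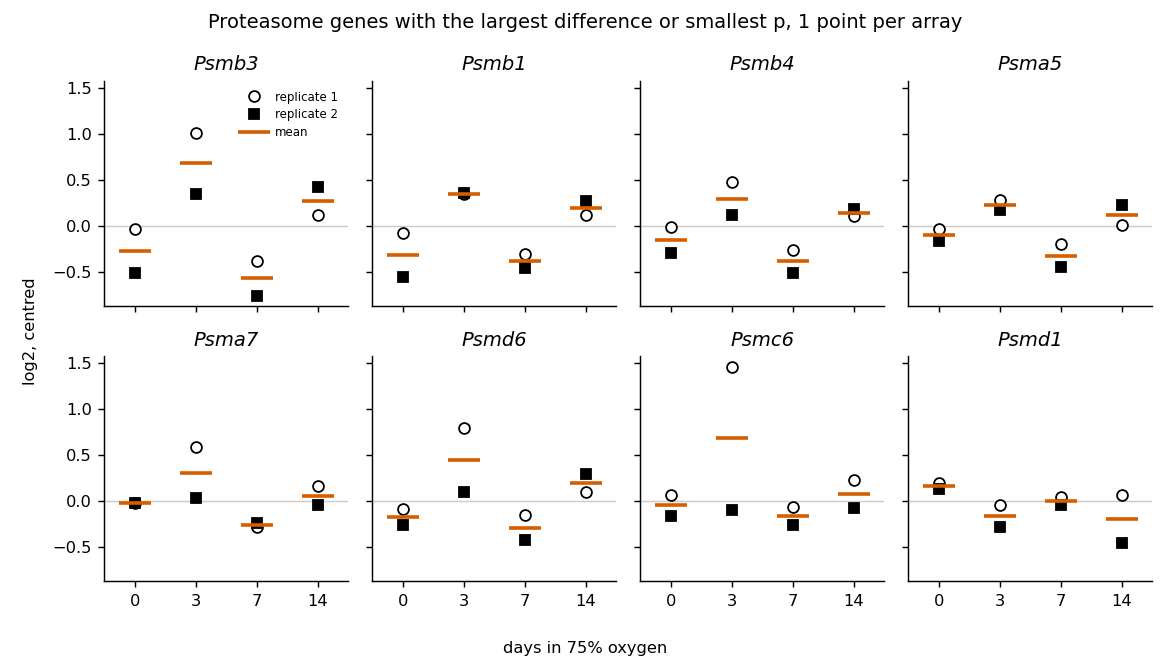
Values of 8 proteasome genes (log2, centred) against days in oxygen, with an open circle for replicate 1, a black square for replicate 2 and a bar for the mean of the 2 arrays. Psmb3, Psmb1, Psmb4 and Psma5 lie above control on both arrays of day 3 and day 14, the day 3 mean of Psmc6 rests on replicate 1 (1.46 against -0.09), and Psmd1 lies below control on both arrays of days 3, 7 and 14.

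Psmc6, an ATPase of the unfolding ring, showed how far 1 array could carry a mean. It stood at 0.07 and -0.16 in controls, 1.46 and -0.09 at day 3, -0.06 and -0.26 at day 7, then 0.23 and -0.07 at day 14. Day 3 replicate 1 was higher than any other value among the 36 genes, and replicate 2 lay within the range of the controls. The difference of 0.73 ± 0.44 had an adjusted p of 0.54 (limma). Without day 3 replicate 2 the difference became 1.51, which rests on replicate 1 alone. Leaving out replicate 2 also takes the disagreement of the 2 arrays out of the spread, so no test is given for that fit. The other 5 ATPases had differences from -0.02 to 0.24 at day 3.

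The regulatory subunits outside the ATPase ring did not move as one. Psmd6, a subunit of the lid, stood at -0.08 and -0.26 in controls, 0.79 and 0.10 at day 3, -0.15 and -0.43 at day 7, then 0.10 and 0.30 at day 14. Its arrays of day 3 and day 14 lay above both controls, with differences of 0.62 ± 0.24 and 0.37 ± 0.24. Psmd1, a large scaffold of the base that holds ubiquitin receptors, stood at 0.19 and 0.13 in controls, -0.05 and -0.28 at day 3, 0.04 and -0.04 at day 7, then 0.07 and -0.45 at day 14. All 6 oxygen arrays of Psmd1 lay below both controls, and its 2 lowest were the arrays that stand apart. Its differences were -0.32 ± 0.19, -0.16 ± 0.19 and -0.35 ± 0.19 at days 3, 7 and 14, with adjusted p of 0.53, 1 and 0.638.

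Psmd4, a receptor for ubiquitin chains, stood at -0.11 and 0.15 in controls, -0.26 and -0.04 at day 3, -0.03 and 0.06 at day 7, then 0.07 and -0.11 at day 14. The arrays overlapped with control at all 3 times, and the largest difference was -0.17 ± 0.15 at day 3. Psmd14, the enzyme that cuts the ubiquitin chain off the substrate, stood at -0.01 and 0.01 in controls, -0.06 and 0.18 at day 3, -0.10 and -0.11 at day 7, then 0.02 and 0.18 at day 14. Its 2 day 7 arrays lay close together below both controls, with a difference of -0.11 ± 0.13, and its day 14 arrays lay above both, with a difference of 0.10 ± 0.13. The 3 Psmd chaperones, Psmd5, Psmd9 and Psmd10, had differences of 0.10 to 0.50 at day 3, -0.08 to -0.00 at day 7 and 0.08 to 0.29 at day 14.

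After 7 days in oxygen the order was turned: 30 of the 36 genes were lower than control and 6 were higher, against 51.9% of all genes lower. The median difference was -0.09, against -0.01 over all genes. Both day 7 arrays lay below both controls for 7 genes (19.4%, against 13.1% of all genes), which were Psma5, Psma7, Psmb7, Psmc4, Psmd1, Psmd3 and Psmd14, and above both for 0 (12.1% of all genes). In contrast to day 3, the rings and the regulatory subunits had like medians. These were -0.12 for the alpha ring, -0.11 for the beta ring, -0.10 for the ATPases and -0.09 for the other regulatory subunits. The 3 Psmd chaperones had a median of -0.04. The adjusted p was 1 for each of the 36 genes (limma, 0 past the threshold, 0% of all genes), and 0 were at an unadjusted p under 0.05, against 0.797% of all genes. The plain one-way analysis of variance gave 2 genes before adjustment (Psma7 and Psmd14, against 2.89% of all genes) and 0 after it. The median was -0.16 with day 7 replicate 1 left out, and it was -0.06 with replicate 2 left out, the array highest in lens genes.

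After 14 days, 27 of the 36 genes were higher than control and 9 were lower, against 64% of all genes higher, and the median difference was 0.11 against 0.08. Both arrays lay above both controls for 17 genes (47.2%, against 33.5% of all genes) and below both for 3, Psma1, Psmd1 and Psmd7 (15.2% of all genes). The alpha ring was split, with 4 of 8 genes higher and a median of 0.01, while 7 of 8 beta ring genes (median 0.17), all 6 ATPases (0.12) and 7 of 11 other regulatory subunits (0.08) were higher. By limma, 0 genes passed the adjusted threshold (0% of all genes), the lowest adjusted p was 0.615, and 1 gene, Psmb1, was higher at an unadjusted p under 0.05 (4.45% of all genes), and 0 were lower at that level (3.56% of all genes). The plain one-way analysis of variance gave 1 gene before adjustment, Psmc4 (against 7.23% of all genes), and 0 after it. Without day 14 replicate 2 the median was 0.11 with 29 genes higher, against a median of 0.05 and 60.8% higher over all genes. In that fit 12 of the 16 ring genes were higher, against 11 with the array kept.

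**Figure D3:**
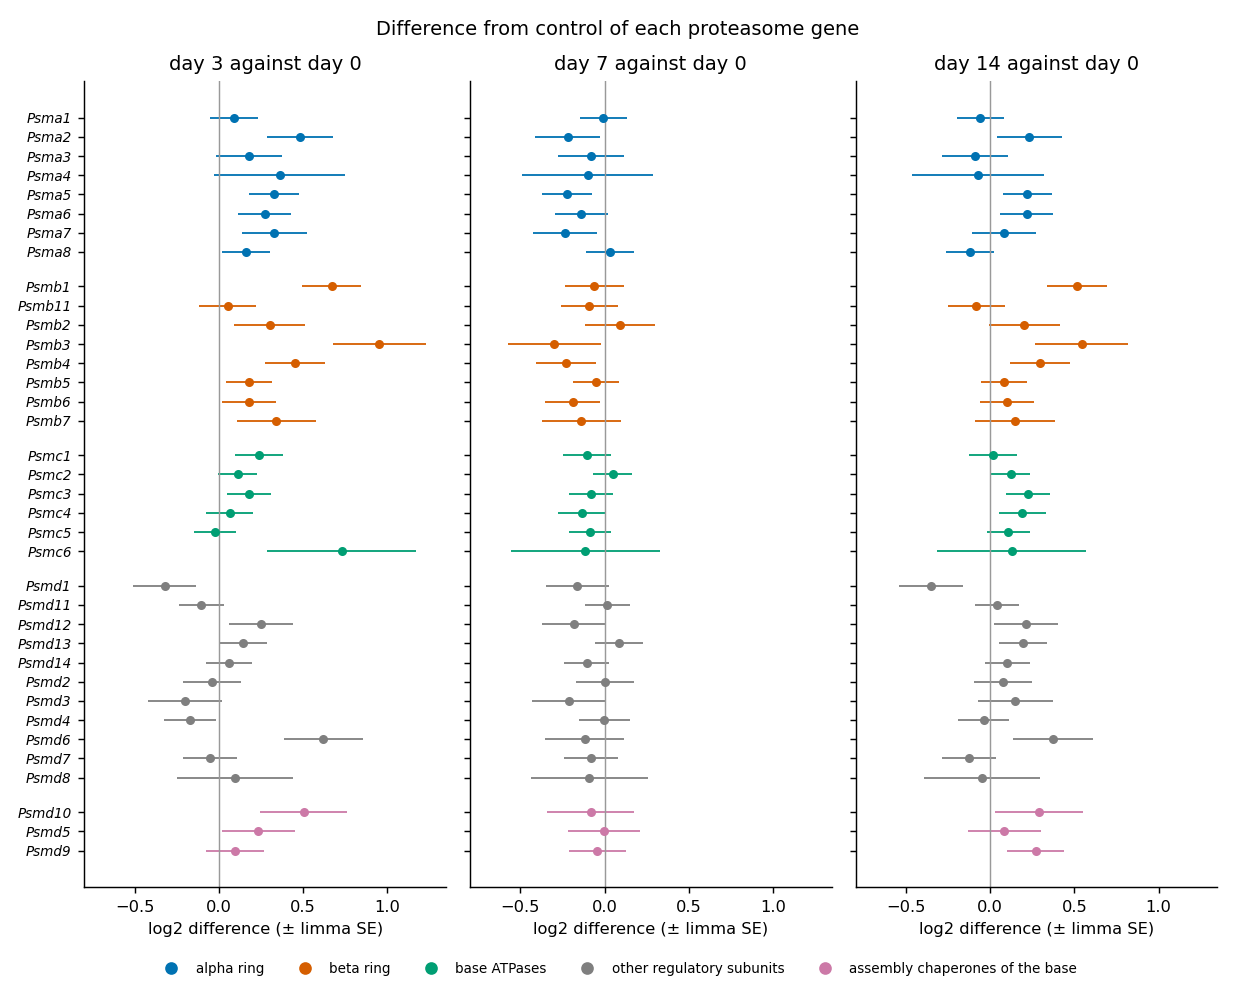
Log2 difference from control of each of the 36 genes at days 3, 7 and 14, with bars for the limma SE, grouped by place in the complex. At day 3 all 16 genes of the alpha and beta rings lie above 0, at day 7 all genes lie within -0.30 to 0.09, and at day 14 the beta ring and the ATPases lie mostly above 0.

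The 3 comparisons with control share the 2 control arrays, so the comparisons between oxygen times were read as well. From day 3 to day 7 the median difference of the 36 genes was -0.23, against -0.06 over all genes, and 32 genes were lower and 4 higher, against 59.7% of all genes lower. With the probe set of largest SD standing for each gene the median was -0.37. The 4 that were higher, Psmd1, Psmd2, Psmd4 and Psmd11, are all regulatory subunits. Both day 7 arrays lay below both day 3 arrays for 17 genes (47.2%, against 28% of all genes) and above both for 2, Psmd1 and Psmd4 (15.6% of all genes). Over the same times the lens genes had a median difference of 5.05, and all 14 were higher. At an unadjusted p under 0.05, 9 proteasome genes were lower (25%, against 8.76% of all genes): Psma2, Psma5, Psma6, Psma7, Psmb1, Psmb3, Psmb4, Psmc1 and Psmd6.

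The difference of Psmb3 between days 7 and 3, -1.25 ± 0.28, was the only one among the 36 genes to reach 2-fold in any of the 6 comparisons (1.8% of all genes reached it in this one, and 0.258% to 1.33% in the others). Its adjusted p was 0.285 (limma), the lowest of the 36 genes and shared with others, and 0 genes passed the threshold (0% of all genes). The one-way analysis of variance gave 2 genes before adjustment, Psma8 and Psmb1 (against 6.76% of all genes), and 0 after it. Without day 3 replicate 2 the median of the 36 genes was -0.31, with 29 lower, against a median of -0.02 over all genes. Day 3 is then replicate 1 alone, with no replicate to show its spread, so no test is given for that fit. Without day 3 replicate 1 the median was -0.19, again with 29 lower, against -0.08 over all genes.

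From day 7 to day 14, 30 genes were higher and 6 lower, against 64.3% of all genes higher, and the median was 0.20 against 0.08. Without day 14 replicate 2 the median was 0.20 with 31 genes higher, against 0.05 and 60.7% higher over all genes. Without day 14 replicate 1 it was 0.20 with 28 genes higher, against 0.10 and 64.1% over all genes. Both day 14 arrays lay above both day 7 arrays for 18 genes (50%, against 34.5% of all genes) and below both for 1, Psma8 (14.4% of all genes). All 8 beta ring genes and all 6 ATPases had a difference above 0, with medians of 0.29 and 0.22. At an unadjusted p under 0.05, 4 genes were higher (Psma5, Psmb1, Psmb3 and Psmb4, 11.1%, against 6.83% of all genes), and 0 passed the adjusted threshold (0% of all genes, lowest adjusted p 0.41 by limma). The one-way analysis of variance gave 3 before adjustment (Psmb1, Psmc4 and Psmd10, against 6.56% of all genes) and 0 after it.

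Between day 3 and day 14, all 16 genes of the alpha and beta rings were lower at the later time, with medians of -0.25 and -0.14, while 4 of 6 ATPases and 6 of 11 other regulatory subunits were higher. Over the 36 genes the median was -0.10, against 0.02, with 25 lower, against 46.6% of all genes. Both day 14 arrays lay below both day 3 arrays for 5 genes (13.9%, against 11.7% of all genes) and above for 2, Psmc5 and Psmd11 (14.4% of all genes). By limma 0 genes passed the adjusted threshold (0% of all genes) and 0 were at an unadjusted p under 0.05 (3.08% of all genes), and the one-way analysis of variance also gave 0 (3.2% of all genes). With day 3 replicate 1 left out the median was 0.02, and with replicate 2 left out it was -0.20, so the sign of this comparison rested on the first of these arrays. Of the 16 ring genes, 11 were lower without day 3 replicate 1, and 15 without both arrays that stand apart. Of all genes, 49.2% and 52.1% were higher in these fits.

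The 3 inducible subunits, which the rule leaves out, followed other arrays than the constitutive ones. Psmb8 stood at -0.08 and -0.17 in controls, 0.08 and 0.71 at day 3, -0.21 and -0.32 at day 7, then 0.11 and 0.79 at day 14. Psmb9 stood at -0.17 and 0.17, then -0.01 and 1.38, 0.01 and -0.54, and -0.02 and 1.39 at the same times. Psmb10 stood at -0.19 and -0.12, 0.39 and 1.11, -0.27 and -0.08, and 0.08 and 1.28. For all 3, replicate 2 of day 3 and replicate 2 of day 14 read highest, and these are also the arrays with the high microglia and gliosis medians and the high 3′ to 5′ difference.

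Each inducible subunit was set against the constitutive subunit it replaces on the same array. Psmb8 minus Psmb5 was 0.53 on day 3 replicate 2 and 0.69 on day 14 replicate 2, Psmb9 minus Psmb6 was 1.17 and 1.26, and Psmb10 minus Psmb7 was 1.15 and 1.23. On the other 6 arrays these differences of centred values lay between -0.33 and 0.29. Psmb8 is the mean of 2 probe sets that disagreed. Their differences from control were 0.96 and 0.07 at day 3, then 0.92 and 0.22 at day 14. The size of Psmb8 minus Psmb5 therefore depends on averaging them. By limma on gene means, no inducible subunit differed from control at an adjusted p of 0.05 (0% of all genes did). The largest such difference was 0.91 ± 0.39 for Psmb10 at day 3 (adjusted p = 0.457).

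**Figure D4:**
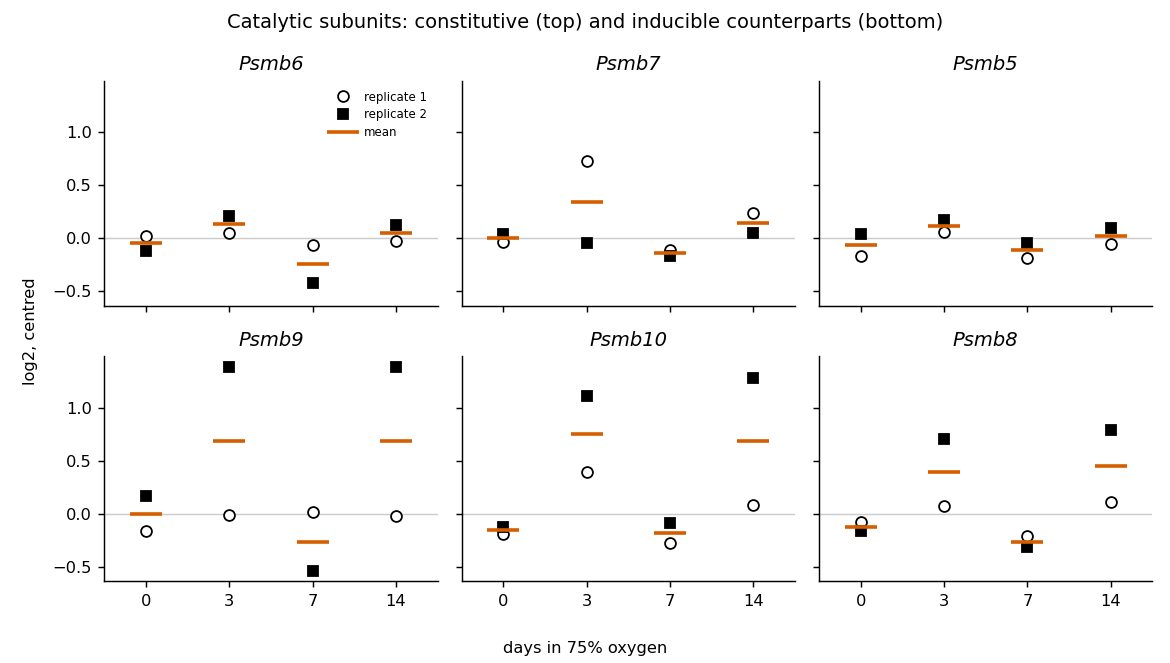
Values (log2, centred) of the 3 constitutive catalytic subunits (top) and the inducible subunit that replaces each (bottom) against days in oxygen, with an open circle for replicate 1, a black square for replicate 2 and a bar for the mean. The inducible subunits reach 0.71 to 1.39 on replicate 2 of days 3 and 14 only, where the constitutive subunits stay between -0.04 and 0.21.

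Genes around the proteasome were read from lists of the pathway. The list of assembly factors of the core, of which 6 were measured, also holds Ecpas, which binds the assembled proteasome. Its median differences were 0.30, -0.14 and 0.14 at days 3, 7 and 14, with 5, 2 and 4 of the 6 higher. Those of Ecpas alone were 0.09, 0.13 and -0.19. Pomp, which matures the beta ring, stood at -0.07 and -0.27 in controls, 0.79 and 0.12 at day 3, -0.22 and -0.35 at day 7, then 0.07 and 0.16 at day 14. Its arrays of day 3 and day 14 lay above both controls, with differences of 0.63 ± 0.22 (limma, adjusted p = 0.427) and 0.29 ± 0.22 (adjusted p = 0.699). Psmg4, a chaperone of the alpha ring, stood at -0.01 and -0.19 in controls, 0.29 and 0.17 at day 3, -0.17 and -0.36 at day 7, then 0.04 and 0.16 at day 14. It too lay above both controls at days 3 and 14, and its differences at the 3 times were 0.33 ± 0.14, -0.16 ± 0.14 and 0.20 ± 0.14.

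Of the factors bound to the regulatory particle, 5 were measured, with medians of 0.21, -0.07 and 0.06. Sem1, a small subunit of the lid whose symbol the rule does not reach, stood at -0.05 and -0.48 in controls, 1.02 and 0.42 at day 3, -0.23 and -0.77 at day 7, then 0.05 and 0.65 at day 14. Both day 3 arrays lay above both controls, day 7 replicate 2 was the lowest array, and the difference was 0.98 ± 0.31 at day 3 (limma, adjusted p = 0.427). The ubiquitin ligase Ube3c, which works on the proteasome, stood at 0.12 and -0.14 in controls, -0.21 and 0.20 at day 3, -0.03 and -0.13 at day 7, then 0.09 and 0.05 at day 14. Its arrays overlapped with control at each time, with differences of 0.00 ± 0.17 at day 3 and 0.08 ± 0.17 at day 14.

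Activators and the inhibitor had medians of -0.24, 0.08 and 0.05 over 4 genes. Psme4, the activator that caps the core in place of the regulatory particle, stood at 0.05 and 0.18 in controls, -0.15 and -0.24 at day 3, 0.23 and 0.23 at day 7, then -0.04 and -0.27 at day 14. Its arrays lay below both controls at days 3 and 14 and above both at day 7, with differences of -0.31 ± 0.13, -0.27 ± 0.13 and 0.11 ± 0.13. Psme1, a subunit of an interferon-induced activator, stood at -0.24 and 0.23 in controls, -0.02 and 0.57 at day 3, -0.08 and -0.02 at day 7, then 0.02 and 0.46 at day 14. Like the inducible subunits it was highest on replicate 2 of days 3 and 14, and its differences were 0.28 ± 0.26 and 0.24 ± 0.26 at those times.

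Genes that bring substrates to the proteasome were read next. Their list of shuttles and factors of the unfoldase p97 also holds Uchl1, a ubiquitin hydrolase. Of the 9 measured genes, 8 had a lower mean at day 3 than in control (against 40.8% of all genes), and 5 had both arrays below both controls (16.1% of all genes). Among the 5, the margin was narrow on day 3 replicate 1 for Nsfl1c (0.0561 against 0.0615 on the lower control) and Nploc4 (-0.1055 against -0.0986). The gene with a higher mean was Uchl1. Of the 9, only Vcp was lower at an unadjusted p under 0.05 at day 3 (4.61% of all genes were), and 0 passed the adjusted threshold (limma, 0% of all genes). The list's medians were -0.21, -0.01 and -0.08 at days 3, 7 and 14. At day 3 the median was -0.17 without day 3 replicate 1 and -0.10 without replicate 2, each with 7 of the 9 lower. Vcp, which encodes p97, stood at 0.20 and 0.34 in controls, -0.45 and -0.17 at day 3, 0.29 and -0.20 at day 7, then -0.11 and -0.17 at day 14. The arrays of days 3 and 14 lay below both controls, with differences of -0.58 ± 0.19 (limma, adjusted p = 0.427) and -0.41 ± 0.19 (adjusted p = 0.627). Its cofactor Nsfl1c stood at 0.06 and 0.25 in controls, 0.06 and -0.31 at day 3, -0.06 and 0.37 at day 7, then -0.14 and -0.55 at day 14. Both arrays lay below control at days 3 and 14, with differences of -0.28 ± 0.22 and -0.50 ± 0.22.

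Of the transcription factors and partners that act on proteasome genes, 7 were measured, with medians of -0.05, -0.09 and 0.10. Mafg, a small Maf gene, stood at 0.21 and 0.18 in controls, -0.67 and -0.03 at day 3, 0.08 and -0.14 at day 7, then -0.13 and -0.10 at day 14. All 6 oxygen arrays were below both controls, by a mean difference of -0.55 ± 0.21 at day 3. Mafk, another small Maf gene, stood at -0.07 and 0.01 in controls, -0.01 and 0.33 at day 3, -0.22 and -0.04 at day 7, then 0.17 and 0.32 at day 14. Only its day 14 arrays lay above both controls, with a difference of 0.28 ± 0.15. Nfe2l1 itself, named here after its values were seen, stood at 0.15 and 0.22 in controls, -0.45 and -0.00 at day 3, -0.16 and 0.00 at day 7, then 0.00 and -0.12 at day 14. All 6 oxygen arrays lay below both controls, with a difference of -0.41 ± 0.17 at day 3 (limma, adjusted p = 0.453). Uba6, the only gene of the ubiquitin supply list measured by a probe set of its own, activates ubiquitin. It stood at 0.21 and -0.07 in controls, 0.62 and -0.35 at day 3, 0.12 and -0.38 at day 7, then 0.02 and -0.33 at day 14. Replicate 1 was above replicate 2 at all 4 times, and the differences were 0.06 ± 0.33 at day 3 and -0.23 ± 0.33 at day 14. None of the genes in these lists passed the adjusted threshold at any of the 3 times (0% of all genes did).

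The cytosolic ribosomal proteins, another set of subunits that every cell uses, had medians of -0.02 and -0.17 in controls, 0.25 and 0.10 at day 3, -0.12 and -0.39 at day 7, then 0.05 and 0.18 at day 14 over 37 genes. Their median differences of 0.32, -0.17 and 0.24 at days 3, 7 and 14 stand beside 0.18, -0.09 and 0.11 for the proteasome genes, so the order of the times was not particular to the proteasome. What these sets share on the arrays was not tested.

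Probe sets of one gene often disagreed. Of the 19 proteasome genes with several probe sets, 11 had probe sets on both sides of 0 at day 3, and 10 at each of days 7 and 14. The widest range was that of Psmd13, a subunit of the lid, whose 4 probe sets ran from -0.54 to 0.81 at day 3 and from -0.40 to 0.67 at day 14.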

How the data were processed

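The deposited values are log2 expression, made by the authors with RMA per the labels (version not given in the sources used here), although the methods name MAS5. Every probe set has a median of 0 over the 8 arrays, to within 5e-07. This centring is not described and leaves differences between arrays but no signal level, so no filter on low signal could be run. Of 45101 probe sets, 64 controls were set aside, and 34945 with 1 gene symbol in the platform annotation were averaged into 18193 genes.

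Arrays were grouped by the time on their labels. Group means for the 4 times were estimated from all 8 arrays (R 4.3.3, limma 3.58.1, lmFit with eBayes, 4 residual and 3.12 prior degrees of freedom). Benjamini-Hochberg adjustment ran over all genes, with a threshold of 0.05. The test was checked on simulated data. With 2 arrays against 2, an exact permutation test cannot go below p = 0.333, so none was used. P-values set each difference between times against the spread between arrays of a time, moderated over all genes. If that spread is technical, they do not cover the variation between mice. The number of arrays limits the precision.

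The members and lists were chosen with earlier results of these data known. Values on every array were given for the catalytic subunits, the 3 members with the largest difference and the 3 with the smallest p at each time against control, Psmd4, Psmd14, Psma8, Psmb11, the inducible subunits and the 2 genes of each other pathway list with the smallest p at day 14. The alternatives were other summaries and normalizations of the values, a replicate block, robust moderation, fits of the compared times alone, a plain one-way analysis of variance between the compared times, and leaving out arrays. The methods also name an analysis of variance, but ran it on 2-fold genes with the cross gene error model of their software, which was not used here. Medians with Psmc3ip, and without Psma8 and Psmb11, were added after the data were seen. Tables were made in Python 3.11.15 with pandas 2.3.3.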

Additional observations from a re-analysis of the deposited data

How the results depend on the processing

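By limma 0 of the 36 genes passed the adjusted threshold in any comparison under the other summaries of a gene, normalizations, moderation and the replicate block. With the probe set of largest SD standing for each gene, the median difference became 0.24 for day 3 against day 0 and -0.37 for day 7 against day 3. Leaving out 1 array at a time gave medians of 0.11 (without day 3 replicate 1) to 0.19 (without day 3 replicate 2) for day 3 against day 0, -0.156 to -0.0565 (without day 7 replicate 1 and 2) for day 7 against day 0, 0.11 to 0.14 for day 14 against day 0, -0.20 (without day 3 replicate 2) to 0.019 (without day 3 replicate 1) for day 14 against day 3, 0.20 to 0.26 (without day 7 replicate 1) for day 14 against day 7, and -0.31 (without day 3 replicate 2) to -0.19 (without day 3 replicate 1) for day 7 against day 3. In these fits the lone remaining array of a time was taken to vary as the rest do. The number past the adjusted threshold ranged from 0 to 1 for day 3 against day 0 and from 0 to 6 for day 7 against day 3, in both cases reached without day 3 replicate 2, and was 0 in the other 4 comparisons. Psmc6 was the gene called at day 3. Without both day 3 replicate 2 and day 14 replicate 2, the medians were -0.22 for day 14 against day 3 and -0.31 for day 7 against day 3, with 0 genes called. With Psmc3ip among the genes the medians at days 3, 7 and 14 against control were 0.18, -0.09 and 0.12, and without Psma8 and Psmb11 they were 0.18, -0.10 and 0.12, both chosen after seeing the data. The cause of the shifts between settings was not tested. For the 29 named genes at days 3, 7 and 14 against control, 1392 values under the alternatives moved by less than the limma SE of the difference. Another 86 moved by more. Psmc6 at day 3 without day 3 replicate 2 was counted apart, with a difference of 1.51 that rests on 1 day 3 array. Many of the 1392 could not move. The replicate block, robust moderation, fits of the compared times alone and leaving out arrays of other times keep each difference as it was.

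Whether the replicate numbers pair the samples is not settled here. The quality measures that accompany the study list the arrays as separate experiments, each with an array of every time. Deviations of same-numbered arrays from their group means correlated between times at -0.30 to 0.46. The correlation was 0.35 for day 0 with day 7 and 0.46 for day 3 with day 14, and negative for the other pairs of times. Day 3 and day 14 each hold an array that stands apart, so these correlations cannot decide on pairing. With the replicate number as a block, the medians cannot change (0.18 for day 3 against day 0), since each number has 1 array at each time. Only the tests can: 0 genes passed, and the lowest adjusted p (limma) at days 3, 7 and 14 against control was 0.437, 1 and 0.623. A filter on dim probe sets could not be run on centred values.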
